A study of Mus musculus with 2 samples.

Results

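The 10 genes described here are linked to epithelial cells and were found in a small cluster of cells from the mouse neurohypophysis (NH). *Krt8* and *Krt18* encode keratins, *Epcam* and *Cdh1* encode adhesion proteins, *Lcn2*, *Clu* and *Cpxm2* encode secreted proteins, *Cyp2f2* and *Maob* encode enzymes, and *Tm4sf1* encodes a membrane protein. They were chosen by symbol, 10 of the 27998 genes in the count matrix of each pool, because the authors' table of mean expression per cluster put most of them above all in the column for epithelial-like cells. Their levels between cell types are therefore a description and were given no test. The NH was dissected from 3-month-old male C57BL/6 mice together with residual tissue of the intermediate lobe (IL). It was dissociated as 2 pools of 5 mice each and captured in 10x Chromium droplets, where mRNA molecules are told apart by unique molecular identifiers (UMIs). Both pools belong to one untreated condition, no genotype or transgene is named in the labels, and the mice within a pool cannot be told apart.

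Simple epithelia line cavities and ducts with a single sheet of cells that are held together by junctions and stiffened by paired keratin filaments. In the rodent pituitary such a sheet lines the cleft, the remnant of Rathke's pouch between the intermediate and anterior lobes. Its cells, the marginal zone, are known to carry factors that also mark pituitary progenitors, and related non-endocrine cells of the anterior lobe are known as folliculostellate cells. The melanotropes of the IL, which make *Pomc*, arise from the same pouch.

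Of the 1500 barcodes with most UMIs in each pool, 273 in pool 1 and 255 in pool 2 passed the limits of the study, with 1001 to 9851 UMIs per cell. The authors' cell types were recovered for these 528 cells from the deposited cluster means. The epithelial-like type held 23 cells, 7 in pool 1 and 16 in pool 2, with 78419 UMIs or 5.50% of all. The other types were pituicyte (196 cells), IL (148), macrophage/microglia (95), T-cell like (42), vascular endothelia (13) and vascular leptomeningeal cells (VLMC, 11 cells). No barcode was shared between the kept cells of both pools, and 4 were shared among the 1500. Against a marker list of 8 genes (*Krt8*, *Krt18*, *Epcam*, *Cdh1*, *Krt19* and 3 claudins), 7 had a UMI in epithelial-like cells. The list summed to 2122 counts per 1000000 UMIs (CPM) in pool 1 and 2115 CPM in pool 2. The next type was IL at 391 and 389 CPM. *Krt8*, *Krt18*, *Epcam* and *Cdh1* in this list belong to the set described here, chosen because most of it stood highest in this cluster. The sum is therefore not independent of that choice and is no separate check of the cell type.

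Grouping the cells anew was coarser than the authors' clusters, with 8 clusters against their 11. With the 10 genes left out of the variable genes, 22 of the 23 epithelial-like cells fell into a cluster of 45 cells. That cluster also held 10 VLMC and 13 vascular endothelial cells. With the 10 genes included, the cluster held 42 cells, of which 22 were epithelial-like, 7 VLMC and 13 vascular endothelial. Why these small types fell together was not tested. Hormone transcripts of the anterior lobe also stood in this type. Of 7 anterior lobe markers, 5 had a UMI in epithelial-like cells, and the list summed to 35357 CPM in pool 1 and 2758 CPM in pool 2. In pool 1, 2 cells carried most of it, with 359 and 310 *Gh* UMIs (growth hormone) of 2324 and 2199 UMIs. In pool 2, 1 cell carried 58 *Prl* UMIs (prolactin), and 2 cells carried 21 *Cga* UMIs each (the glycoprotein hormone alpha subunit) with 6 and 13 *Lhb* UMIs. The part of these cells in the member levels was measured by leaving them out, as given with the levels below. By its sum, the list was not particular to this type: it stood at 188 and 9421 CPM in IL cells and at 2292 and 240.2 CPM in vascular endothelia. *Lhb* and *Cga*, in contrast, lay mostly in epithelial-like cells, with 24 of 25 and 47 of 65 UMIs. The IL melanotrope list summed to 3624 and 5042 CPM in epithelial-like cells against 127009 and 96910 CPM in IL cells. Marker lists of ciliated ependymal cells, neutrophils and red blood cells had 1 gene each with a UMI in epithelial-like cells. The VLMC list stood at 155 and 118 CPM there, against 18137 and 8147 CPM in VLMC. The vascular list stood at 362 and 558 CPM there, against 7932 and 7527 CPM in vascular endothelia.

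The start regions of the genes are shown first because the members were found in the same cells. RefSeq promoter windows were found for 7 of the 10 genes, in build GRCm38.p6. The 4 shown are the keratin pair, *Epcam*, which was shared with IL cells, and *Cyp2f2*, which was nearly restricted to the cluster. Each runs 5′ to 3′ on the strand of its gene and ends at the first base annotated as exon or at the start site. Capitals mark a GC box.
Krt8, chr15:102004483-102004592, reverse strand: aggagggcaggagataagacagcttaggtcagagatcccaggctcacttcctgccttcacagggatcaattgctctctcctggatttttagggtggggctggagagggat
Krt18, chr15:102027966-102028179, forward strand: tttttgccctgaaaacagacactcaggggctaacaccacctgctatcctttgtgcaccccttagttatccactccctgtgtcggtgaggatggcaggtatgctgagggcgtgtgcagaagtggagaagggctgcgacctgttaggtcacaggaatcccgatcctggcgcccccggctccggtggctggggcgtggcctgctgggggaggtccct
Epcam, chr17:87635729-87635978, forward strand: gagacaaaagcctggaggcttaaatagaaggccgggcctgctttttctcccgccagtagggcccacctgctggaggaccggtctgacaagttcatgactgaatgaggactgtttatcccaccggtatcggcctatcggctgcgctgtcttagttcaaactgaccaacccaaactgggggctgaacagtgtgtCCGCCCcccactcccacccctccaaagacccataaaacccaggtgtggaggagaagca
Cyp2f2, chr7:27119705-27119908, forward strand: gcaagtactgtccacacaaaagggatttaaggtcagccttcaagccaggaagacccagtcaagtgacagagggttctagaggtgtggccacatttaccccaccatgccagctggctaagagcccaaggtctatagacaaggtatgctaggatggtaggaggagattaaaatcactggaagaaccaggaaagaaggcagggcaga
*Krt8* and *Krt18* are neighbours on chromosome 15 that point away from each other, with 23.7 kb between the gene bodies (101996698 to 102004482 on the reverse strand and 102028180 to 102032027 on the forward strand). *Epcam* lies on chromosome 17 at 87635979 to 87651129, forward strand, and *Cyp2f2* on chromosome 7 at 27119909 to 27133660, forward strand. A set of 5 short motifs was searched on both strands in the 250 bases before the start site. The GC box GGGCGG was found in the windows of *Lcn2*, *Cpxm2* and *Epcam*, against 32.9% of 27025 promoter windows. *Cpxm2* held 3 copies. A C/EBP motif, TTGCNNAA, was found in the window of *Lcn2* as TTGCTCAA and in 9.55% of all windows. No base of the *Lcn2* window lay before the first base annotated as exon. Its GC box and C/EBP motif therefore lie within the annotated gene. The TATA box TATAAA (13.0% of all windows), a GRHL motif AACCNGTT (1.71%) and an AP-1 motif TGANTCA (6.87%) were in none of the 7 windows. No motif was shared by all 7.

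Over the whole set, 8 of the 10 genes had a higher level in epithelial-like cells than in each other type in both pools. Of 9760 genes with at least 15 UMIs in the kept cells, 4.77% did so. The members were picked from this contrast, so nothing is read from their count. Of the 10 genes, 9 had at least 15 UMIs and *Cdh1* did not. The 2 exceptions were *Tm4sf1*, which stood higher in vascular endothelia, and *Cdh1*, which was close to absent from the data.

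**Figure D1:**
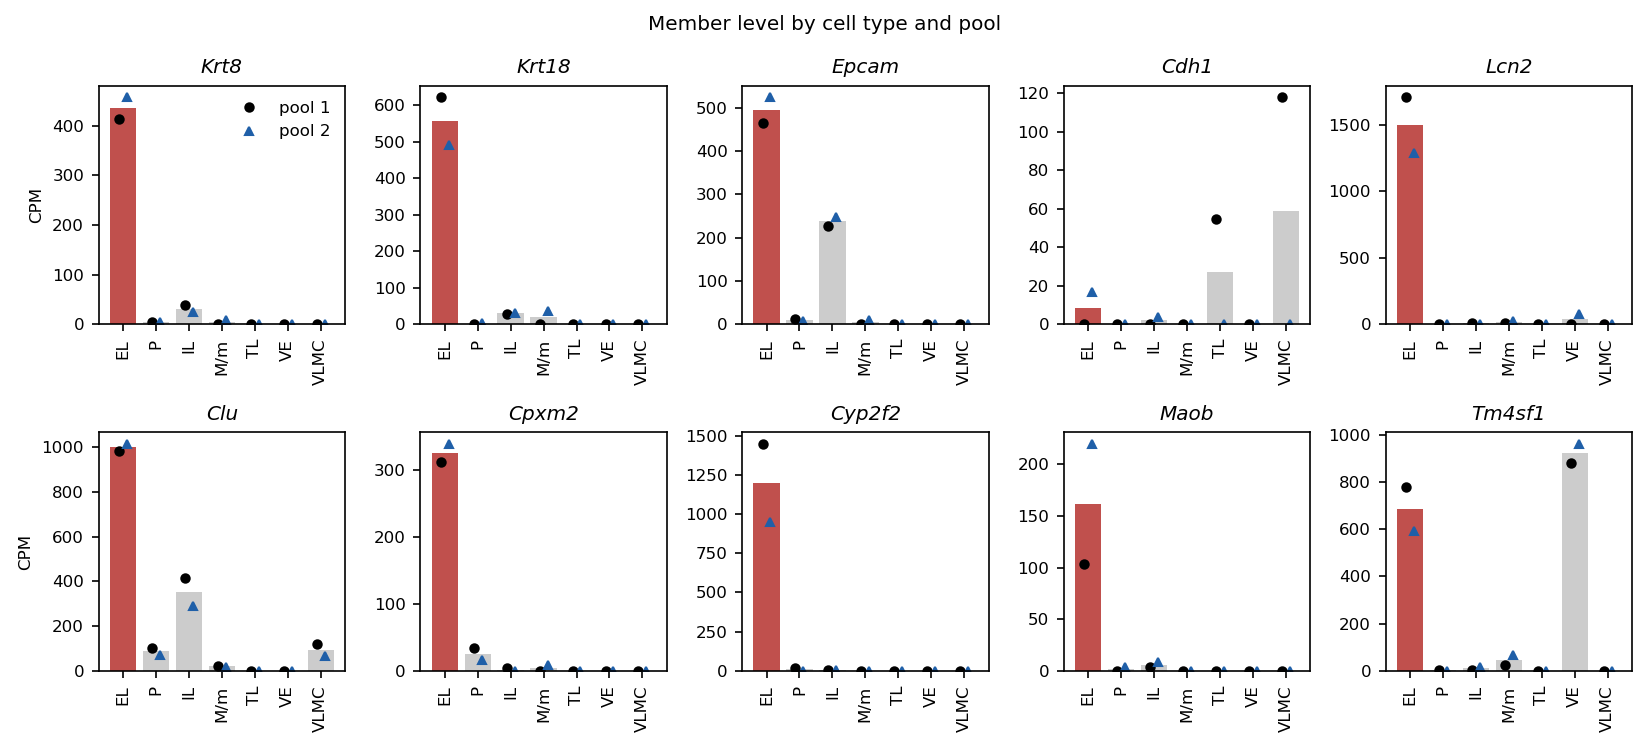
Levels of the 10 genes in CPM (counts per 1000000 UMIs, linear axes from 0, each panel with its own scale) in epithelial-like (EL), pituicyte (P), IL, macrophage/microglia (M/m), T-cell like (TL), vascular endothelial (VE) and VLMC cells. Bars are means of the 2 pools and symbols are the pools. In 8 panels both symbols of EL lie above those of each other type, while *Tm4sf1* is highest in VE. *Cdh1* has its highest points in VLMC and TL, both of pool 1, and lower ones in EL and IL of pool 2.

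Keratin 8 and keratin 18 pair to form the intermediate filaments of simple epithelia. *Krt8* stood at 414 CPM in pool 1 and 457 CPM in pool 2 in epithelial-like cells. Of its 8 UMIs in those of pool 1, 5 lay in 1 cell of 7452 UMIs. In IL cells, the next type, *Krt8* stood at 39.1 and 24.0 CPM. The ranges of both types were apart, and the mean level was 13.8 times that of IL cells. *Krt18* stood at 621 and 491 CPM in epithelial-like cells and at 28.4 and 32.1 CPM in IL cells, a ratio of the means of 18.4. Macrophage/microglia had 4 *Krt18* UMIs, all in 1 cell of pool 2. In the barcodes of 1 to 50 UMIs of pool 1, which mostly hold free RNA, *Krt8* stood at 11.1 and *Krt18* at 19.0 CPM. No UMI of either keratin was found in T-cell like, vascular endothelial or VLMC cells. Of the UMIs of all kept cells, 63.6% of those of *Krt8* and 66.1% of those of *Krt18* lay in epithelial-like cells.

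The adhesion genes parted. EpCAM is a surface adhesion protein of epithelia. *Epcam* stood at 466 and 525 CPM in epithelial-like cells, and at 228 and 248 CPM in IL cells, a ratio of 2.05 in pool 1 and 2.11 in pool 2. The levels of both types did not overlap. With TMM scaling they were closer in pool 1, at 349 against 330.4, and stood at 563 against 345 in pool 2. All other types stood at 12.7 CPM or less. As IL cells were more numerous, only 23.3% of *Epcam* UMIs lay in epithelial-like cells. Both authors' clusters of IL cells carried it, with authors' means of 2.19 and 2.49 UMIs per 10000 against 6.15 in the epithelial-like cluster. *Cdh1*, which encodes E-cadherin, the classical adhesion molecule of epithelial junctions, gave 6 UMIs in all 528 cells. One lay in an epithelial-like cell of pool 2, 1 in an IL cell, 1 in a VLMC and 3 in 3 T-cell like cells of pool 1. The share of epithelial-like cells with a *Cdh1* UMI was 4.35% (exact 95% interval 0.110 to 21.9%), so that a low level of *Cdh1* was not detectable at this depth.

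Among the secreted proteins, *Lcn2* showed the most restricted level. Lipocalin-2 binds iron-carrying siderophores of bacteria. *Lcn2* stood at 1708 CPM in pool 1 and 1286 CPM in pool 2 in epithelial-like cells, with 93.2% of its UMIs there. Elsewhere it had 8 UMIs, 4 of them in macrophage/microglia, and no type exceeded 80.1 CPM in a pool. Pituicytes had none in 196 cells, which allows a share of up to 1.53% of cells with a UMI by a floor of 3 counts (exact upper limit 1.86%). *Clu* encodes clusterin, a secreted chaperone that also restrains complement. It stood at 984 and 1015 CPM in epithelial-like cells, at 416 and 289 CPM in IL cells, at 118 and 66.2 CPM in VLMC and at 102 and 71.0 CPM in pituicytes. IL lay above VLMC and pituicytes in both pools, while VLMC and pituicytes overlapped. In pool 1, the barcodes of 1 to 50 UMIs had *Clu* at 105 CPM. Macrophage/microglia stood at 22.6 and 18.5 CPM, and T-cell like and vascular endothelial cells held no *Clu* UMI. The VLMC level rested on 2 UMIs and that of pituicytes on 42. How much of these levels came from free RNA was not tested. *Cpxm2*, which encodes a member of the carboxypeptidase family, stood at 311 and 338 CPM in epithelial-like cells and at 33.9 and 15.8 CPM in pituicytes, the next type. In pool 1, 5 of the 6 *Cpxm2* UMIs of epithelial-like cells lay in 1 cell of 7452 UMIs. IL cells held 1 *Cpxm2* UMI, so the second place differed from that of the keratins, *Epcam* and *Clu*.

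Both enzymes were low outside the cluster. *Cyp2f2* encodes a cytochrome P450 that is known from the club cells of the airways. It stood at 1449.5 CPM in pool 1 and 948 CPM in pool 2, with 93.3% of its UMIs in epithelial-like cells. Pituicytes had 4 UMIs, all in pool 1 (17.0 CPM, beside 16.9 CPM in the barcodes of 1 to 50 UMIs), IL cells had 2, and the other types had none. *Maob*, which encodes monoamine oxidase B, a mitochondrial enzyme that degrades amines, stood at 104 and 219.96 CPM against 3.56 and 8.01 CPM in IL cells. The *Maob* level rested on 15 UMIs, of which 8 came from the epithelial-like cell with most UMIs, in pool 2. Without that cell *Maob* in pool 2 stood at 99.4 CPM and *Cpxm2* at 199 CPM.

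*Tm4sf1* encodes a small tetraspanin-like membrane protein that is known from endothelium and from epithelial tumours. It stood at 777 and 592 CPM in epithelial-like cells and at 881 and 961 CPM in vascular endothelia. The ranges of both types did not overlap by summed CPM, but the order turned with TMM scaling, under which epithelial-like cells stood at 582 and 636 and endothelia at 531 and 617. The vascular sums held 10 and 12 *Tm4sf1* UMIs in 13 cells, so their precision was low. Of the 15 *Tm4sf1* UMIs of epithelial-like cells in pool 1, 10 lay in 1 cell of 7452 UMIs. All other types stood at 64.9 CPM or less.

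The levels were computed again without the cells rich in anterior lobe hormones. Without the 5 epithelial-like cells in which the anterior lobe list took over 0.5% of UMIs, a limit chosen after seeing the data, the 18 others had *Lcn2* at 2028 and 1417 CPM, *Krt8* at 541 and 656 CPM, and the same count of 8 genes highest in both pools. *Cpxm2* then stood at 338 and 157 CPM and *Maob* at 67.6 and 78.7 CPM, and the cell with most UMIs was among the 5. The mitochondrial share was 10% or more in 11 of the 23 cells. The cells under 10% had *Lcn2* at 1751 CPM in pool 1 and 529 CPM in pool 2, *Clu* at 1250.5 and 364 CPM, and *Cyp2f2* at 2126 and 661 CPM, so that for these 3 genes the cells of pool 2 were below the level of all its epithelial-like cells and those of pool 1 were not. *Krt8* stood at 125 and 397 CPM in them, lower in pool 1, where the value rested on 1 UMI, in the cell of 1921 UMIs. The cells under 10% in pool 1 included those with 359 and 310 *Gh* UMIs. The count of 8 was the same in the cells under 10%.

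The share of cells with a UMI was largest for *Lcn2* and *Cyp2f2*, with wide intervals that cover counting error only. *Lcn2* had a UMI in 21 of 23 epithelial-like cells (91.3%, exact 95% interval 72.0 to 98.9%) and *Cyp2f2* in 20 (87.0%, 66.4 to 97.2%). *Clu* was found in 82.6%, *Krt18* and *Epcam* in 78.3% each, *Tm4sf1* in 69.6%, *Krt8* in 56.5%, *Cpxm2* in 43.5% and *Maob* in 30.4%. In the T-cell like type, 9 of the 10 were in none of 42 cells, which allows a share of up to 7.14% by a floor of 3 counts (exact upper limit 8.41%). The tenth, *Cdh1*, had 1 UMI in each of 3 of these cells (7.14%). The median depth was 2324 UMIs in epithelial-like and 1596 in T-cell like cells. *Epcam* was in 46.6% of IL cells (38.4 to 55.0%) and *Clu* in 55.4% (47.0 to 63.6%), at a median of 3249 UMIs. When each cell was thinned to 1000 UMIs, *Lcn2* and *Cyp2f2* were each in 73.9% of epithelial-like cells, *Epcam* in 56.5% against 21.6% of IL cells, and *Clu* in 52.2% against 26.4%.

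**Figure D2:**
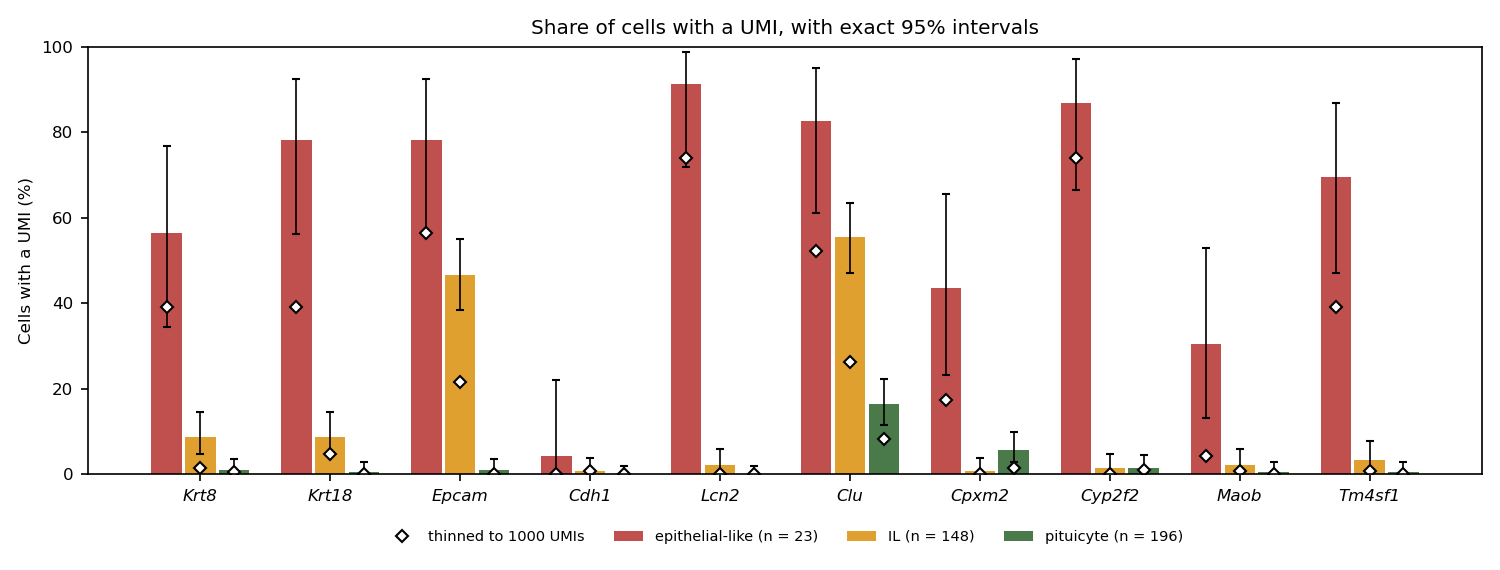
Share of cells with at least 1 UMI of each gene (percent) in epithelial-like, IL and pituicyte cells. Bars are all UMIs with exact 95% intervals and diamonds are the shares after thinning each cell to 1000 UMIs; *Epcam* and *Clu* are the genes with a tall second bar, in IL cells, and *Lcn2* and *Cyp2f2* stay at 73.9% of epithelial-like cells when thinned.

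The members were also counted within single cells. They were chosen because most stood highest in this cluster, so a high number per epithelial-like cell follows from that choice. Whether pairs of genes met in a cell more often than their separate shares imply was not tested. An epithelial-like cell carried a median of 7 of the 10 genes, and 19 of 23 carried at least 5. The median was 1 in IL and vascular endothelial cells and 0 in the other types. Outside the epithelial-like type, 1 IL cell and 1 macrophage/microglia cell carried 5 or more. After thinning, the median was 4 in epithelial-like cells and 0 in every other type. *Lcn2* and *Cyp2f2* were both found in 20 cells, 1 cell had *Lcn2* alone, and 2 had neither. *Krt8* and *Krt18* were both in 12 cells, *Krt18* alone in 6, *Krt8* alone in 1 and neither in 4. The 2 cells with neither *Lcn2* nor *Cyp2f2* were in pool 2. The one of 1818 UMIs carried 6 *Krt8*, 3 *Krt18*, 3 *Tm4sf1*, 1 *Epcam* and 1 *Clu* UMIs. It so had the keratins without *Lcn2* and *Cyp2f2*. The one of 1570 UMIs carried a single *Krt18* UMI and none of the other 9. The 10 genes took between 0.0637 and 1.55% of the UMIs of an epithelial-like cell, with a median of 0.621%, against a median of 0.0588% in IL cells. In IL cells, *Epcam* and *Clu* were both found in 43 of 148 cells, while a keratin was found in 23, of which 9 also had *Epcam*.

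**Figure D3:**
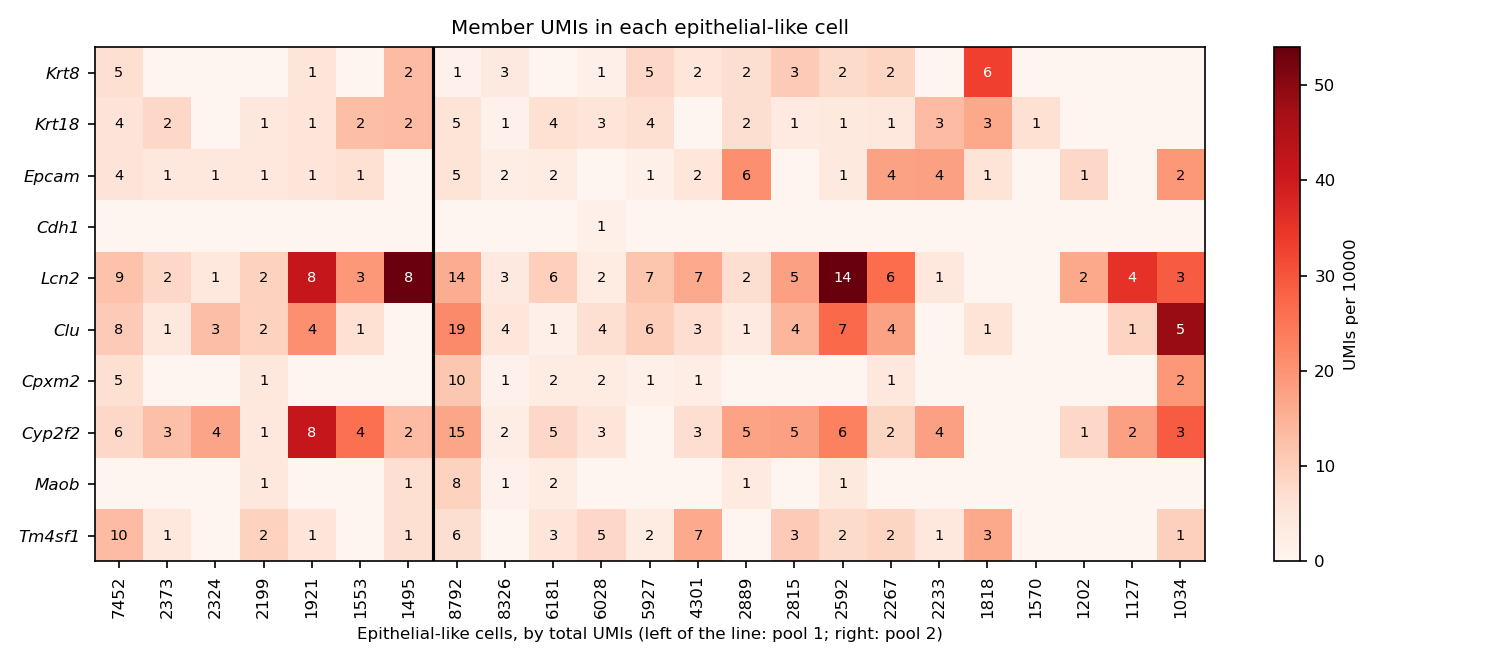
UMIs of each gene in the 23 epithelial-like cells, labelled by their total UMIs, with pool 1 left of the line and pool 2 right of it. Numbers are UMIs and the colour is UMIs per 10000; *Lcn2* and *Cyp2f2* fill nearly every column, the column of 1570 UMIs holds 1 member UMI, and *Cdh1* appears once.

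Barcodes outside the limits of the study had no part in the clustering or in the choice of the genes. There were 1227 of them in pool 1 and 1245 in pool 2 among the 1500. The 10 genes together stood at 478 CPM in those of pool 1 and 609 CPM in those of pool 2, against the 570 and 777 CPM of all kept cells. In the 9 and 11 barcodes over 10000 UMIs, they stood at 1565 and 1663 CPM, levels that leaned on few barcodes. In pool 2, the barcode of 19569 UMIs held all 43 *Cyp2f2* and all 23 *Lcn2* UMIs of these. In pool 1, the barcode of 13858 UMIs held 26 of their 34 *Lcn2* UMIs. In the 503 and 459 barcodes of 400 to 1000 UMIs they stood at 238 and 364 CPM, and in pool 1 the barcodes with 1 to 50 UMIs stood at 254 CPM. Barcodes with at least 5 of the genes numbered 5 in pool 1 and 4 in pool 2. One in pool 2 with 19569 UMIs carried all 10, with 43 *Cyp2f2*, 28 *Clu*, 25 *Krt18*, 23 *Lcn2* and 1 *Cdh1* UMIs, and the genes took 0.833% of its UMIs, a share within the range of epithelial-like cells. One in pool 1 with 13858 UMIs carried 26 *Lcn2* UMIs beside 775 *Pomc* UMIs, and the genes took 0.476% of its UMIs. At the other end, 1 barcode of 991 UMIs in pool 2 carried 6 of the genes (1.41% of its UMIs), and 1 of 721 UMIs in pool 1 carried 5 (1.11%). *Lcn2* and *Cyp2f2* were also counted together in these barcodes. In pool 1, 6 had *Lcn2*, of which 4 also had *Cyp2f2*, 3 of them with over 10000 UMIs, while 5 had *Cyp2f2* alone and 1216 had neither. In pool 2, 19 had *Lcn2*, of which 4 also had *Cyp2f2* and 15 did not, 6 had *Cyp2f2* alone and 1220 had neither. The 56 and 27 barcodes that failed the mitochondrial limit alone held no UMI of either gene.

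**Figure D4:**
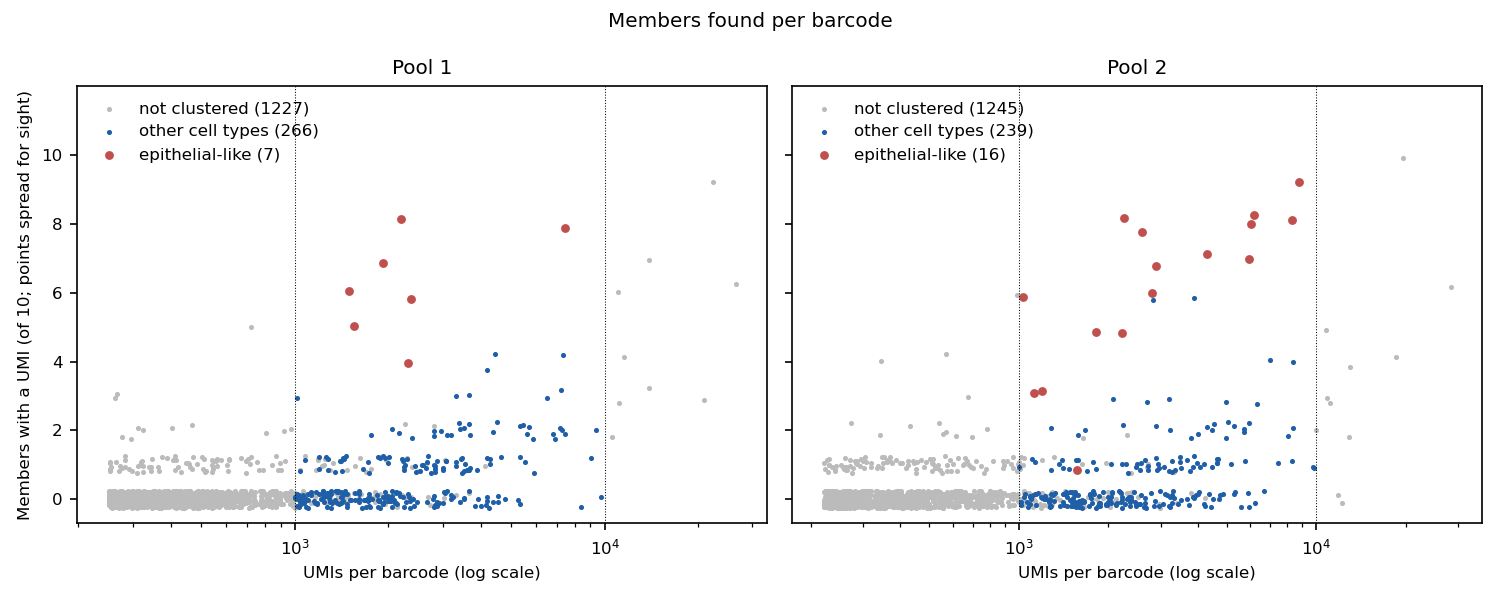
Number of the 10 genes with a UMI (points spread vertically for sight) against UMIs per barcode (log scale) for the 1500 barcodes of each pool. Dotted lines mark the limits of 1000 and 10000 UMIs; epithelial-like cells lie above nearly all other clustered cells, and a few barcodes that were not clustered lie as high, up to 10 genes at 19569 UMIs.

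Other genes were counted by lists. Each count is of genes highest in epithelial-like cells in both pools among those with at least 15 UMIs, and the background is again 4.77%. The lists were chosen with earlier results of these data known. Some genes passed the filter only through epithelial-like cells, such as *Cldn7* (16 of 30 UMIs there) and *Ednrb* (47 of 58). The counts and ratios are therefore descriptions, and nothing is read from their distance to the background. Of 15 tested genes of epithelial junctions and polarity, 7 were highest. Among them were *Cldn3* at 466 and 338 CPM (IL 60.4 and 64.1), *Cldn9* at 311 and 203 CPM (IL 28.4 and 28.1) and *Cldn7* at 104 and 237 CPM (IL 35.6 and 16.0), which encode claudins of tight junctions, and *Ctnna1* at 569 and 219.96 CPM, which encodes the catenin that links cadherins to actin. The endothelial level of *Ctnna1* was 353 and 160.2 CPM, so its ranges in both types overlapped. Other junction genes of the list stood lower than another type in both pools. *F11r* stood at 104 and 169 CPM (macrophage/microglia 417 and 621) and *Jup* at 259 and 152 CPM (vascular endothelia 793 and 400). *Tjp1* stood at 51.8 and 84.6 CPM (vascular endothelia 88.1 and 320.3) and *Ocln* at 0 and 50.8 CPM (pituicyte 55.2 and 75.0). Of 6 epithelial regulators and protease inhibitors, 3 were highest. *Spint2*, which encodes an inhibitor of membrane serine proteases, stood at 1242 and 525 CPM (IL 252 and 216). *Spint1* stood at 155 and 135 CPM (macrophage/microglia 56.4 and 55.6). *Rab25*, a small GTPase of epithelial recycling, stood at 51.8 and 152 CPM (IL 35.6 and 100.2), so its ranges in both types overlapped. The regulators *Esrp1* (0 and 50.8 CPM, IL 39.1 and 16.0) and *Elf3* (0 and 67.7 CPM, IL 21.3 and 16.0) were below IL cells in pool 1. Of 2 other keratins with enough UMIs, 0 were highest. *Krt17*, below the filter with 9 UMIs, had 8 of them in epithelial-like cells. Of the 25, 16 and 9 genes listed, 10, 10 and 7 had fewer than 15 UMIs.

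Of 15 tested marginal zone, folliculostellate and progenitor genes, 8 were highest in epithelial-like cells. The tetraspanin *Cd9* stood at 932 and 711 CPM, against 471 and 331 CPM in VLMC. *Ednrb*, the endothelin B receptor, stood at 569 and 609 CPM and in vascular endothelia at 0 and 320.3 CPM. *Six6* and *Sox2*, transcription factors of the pituitary and its progenitors, stood at 518 and 288 CPM (IL 167 and 140.3) and at 414 and 237 CPM (pituicyte 191 and 142). Among those not highest, *S100b* stood at 0 and 16.9 CPM, against 1178 and 1987 CPM in VLMC. Of 14 tested genes of xenobiotic and redox metabolism, 7 were highest. *Gstm1*, a glutathione transferase, stood at 2795 and 1455 CPM (VLMC 471 and 331), the membrane transferase *Mgst1* at 828 and 491 CPM (pituicyte 191 and 225), *Por*, the reductase that feeds electrons to cytochromes P450 such as CYP2F2, at 518 and 305 CPM (pituicyte 55.2 in both pools), and *Gsta4* at 362 and 186 CPM. Of 4 acute phase and mucosal defence genes, 1 was highest, *Wfdc2*, at 207 and 84.6 CPM. Of 4 chaperones and complement control genes, 1 was highest, *Cd59a*, which encodes an inhibitor of complement lysis, at 311 and 254 CPM. The only motile cilia gene with enough UMIs was not highest. The median log2 ratio to the mean of the other types (with 10 CPM added) was 2.01 for junctions, 2.05 for regulators, 0.64 for keratins, 2.26 for the marginal zone list, -0.58 for cilia, 1.66 for metabolism, 1.15 for the acute phase and 2.00 for chaperones, beside -0.07 over all tested genes.

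**Figure D5:**
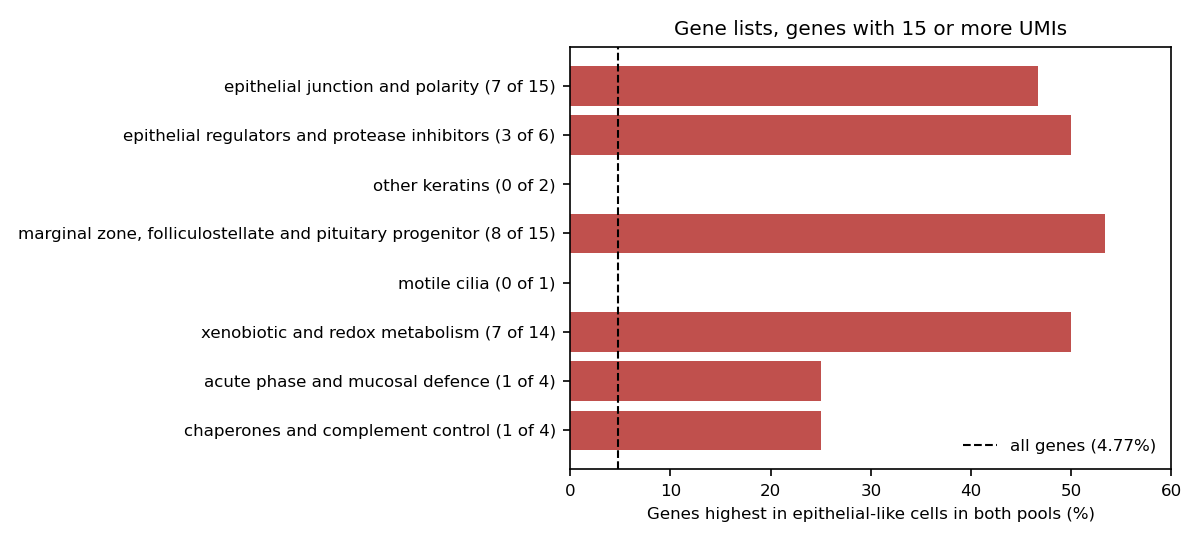
Share of the tested genes of each list that were highest in epithelial-like cells in both pools (percent, counts beside the names), with the dashed line at the 4.77% of all genes with at least 15 UMIs. The lists of junctions, regulators, the marginal zone and metabolism stand at about equal height, and other keratins and motile cilia at 0. The lists were chosen with earlier results of these data known, so the shares are descriptions.

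The profiles of the members over the 11 deposited cluster means, on log2(mean + 0.1), were compared with those of 4734 genes. These correlations rest on 11 points of the same libraries and are descriptions. Among the nearest, *Krt8* had *Cldn7* (r = 0.99), *Krt18* had *Cldn7* (0.97), and *Epcam* had *Six6* (0.99) and *Smim22* (0.98). *Lcn2* was nearest to *Lhb* and *F2rl1* (0.96 each), of which *Lhb* came mostly from 2 cells of pool 2. *Cyp2f2* was nearest to *Folr1* and *Alox12e* (0.99 each), *Cpxm2* to *Tst* (0.97) and *Lgi1* (0.94), *Maob* to genes that include *Il17re* (0.96), *Clu* to *Gprasp1* (0.93) and *Tmc4* (0.92), and *Tm4sf1* to *Snx17* (0.97) and *Bcam* (0.93). *Cdh1* was below the floor of 1 UMI per 10000 and was not compared. Among the genes nearest to the mean profile of the other 9 were *Il17re* (0.98), *Cldn7* (0.97) and *Kcnk1* (0.94). Within the set, *Krt8* and *Krt18* were most alike (0.99), *Lcn2* and *Cyp2f2* had 0.92, and *Clu* and *Tm4sf1* least (0.03).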

How the data were processed

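For each pool, the authors deposited a matrix of raw UMI counts, made per the labels with Cell Ranger on build mm10, and a table of mean values per cluster, UMIs scaled to 10000 per cell and averaged per cluster over both pools with Seurat. In the table, IL cells are 2 columns named neural progenitor, and VLMC is OPC/LVMC. All 11 columns are of clusters, none of a sample.

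Cells with over 1000 and up to 10000 UMIs, 400 to 5000 genes and under 25% mitochondrial UMIs were kept from the 1500 barcodes with most UMIs. Each cell was given to the cluster whose deposited mean it entered, by non-negative least squares (smallest weight 0.989 and largest other weight 0.0096). On shuffled memberships, 528 of 528 cells were returned. Of 15025 genes, 349 differed from their deposited mean by over 0.05 UMIs per 10000 in some cluster, the members by at most 0.011. UMIs were summed per type and pool and scaled to CPM. A pool was the replicate, and no p-value was computed. Doublets were not called or removed. The named genes are the 10 members, up to 4 per list that were highest in epithelial-like cells in both pools, the 2 nearest profiles per member and 5 to their mean, and markers that bear on a result. Some list genes that were not highest are named beside them. Some genes that this rule names are not reported here. The members and lists were chosen with earlier results of these data known. Python 3.11.15, R 4.3.3, edgeR 4.0.16 (TMM factors only) and Seurat 5.3.0 (regrouping: 900 variable genes, 11 components, resolution 1.0) were used. Gene positions are from GENCODE on GRCm38, the assembly of mm10.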

Additional observations from a re-analysis of the deposited data

Results flagged for a closer look

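Among barcodes that the study did not cluster, 5 in pool 1 and 4 in pool 2 carried UMIs of at least 5 of the 10 genes. They were singled out because they lie outside the data used for the cell types. Of the 9 barcodes, 7 held over 10000 UMIs, and a count of genes with a UMI can rise with depth. One of 22377 UMIs in pool 1 carried 9 of the genes (0.277% of its UMIs) and 1761 *Gh* UMIs. One of 28339 UMIs in pool 2 carried 6 (0.0776%), with 7983 *Gh* UMIs and 8 UMIs of the endothelial marker *Plvap*. One of 10828 UMIs in pool 2 carried 5 (0.157%), with 13 *C1qa* and 507 *Pomc* UMIs. Those of 26477 and 11082 UMIs in pool 1 carried 6 each (0.0869 and 0.180%). The median share was 0.621% in epithelial-like and 0.0588% in IL cells.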

How the results depend on the processing

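The count of 8 members highest in epithelial-like cells in both pools was 8 with the mean over cells, with mitochondrial shares under 10%, without the cell with most UMIs, without the 5 hormone-rich cells and with no filter on low counts. It was 9 with TMM and with the cells grouped anew (*Tm4sf1* added in both). The cluster grouped anew held all 13 vascular endothelial cells, the type in which *Tm4sf1* stood higher. The gain of *Tm4sf1* there follows from that merger and is no check of its level. In single pools it ranged from 8 to 9, the higher value from *Cdh1* with 1 UMI in pool 2. The 27 list genes became 25 with TMM, 33 with no filter and 28 without the hormone-rich cells. TMM moved the median log2 ratio of all genes between epithelial-like and IL cells from -0.04 to -0.47, and the log2 ratio of *Epcam* from 1.03 to 0.42 and of *Clu* from 1.48 to 0.85 with it. In the cluster grouped anew, which also holds endothelial cells and VLMC, *Epcam* stood at 229.9 CPM against 228 CPM in IL cells in pool 1. Of 80 log2 ratios of a member to the next type under an alternative, 52 moved by less than the spread between pools and 28 by more. The 80 include the ratios of each pool alone, which themselves set that spread. The 52 is therefore no measure of how stable the ratios were. None of the ratios of the 8 members changed sign. Of the 10 shares, 6 left their interval when thinned. The 10 genes in barcodes that were not clustered stood at 542 CPM over both pools, at 269.9 CPM in those that failed the mitochondrial limit alone and at 635 CPM in those with at least 400 UMIs. The types are paired within a pool, but no test was run, so no paired analysis was made. Each type was measured in both pools, and its values are given per pool. With 7 and 16 cells, levels of *Maob*, *Cpxm2* and *Cdh1* rest on few UMIs, and 15 UMIs set the floor of what was counted.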

Other observations

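Outside the epithelial-like type, 2 clustered cells carried at least 5 of the 10 genes, both in pool 2. A macrophage/microglia cell of 3877 UMIs carried 6, with 7 *Tm4sf1*, 4 *Krt18* and 3 *Lcn2* UMIs beside 16 *C1qb* and 11 *C1qa* UMIs. It held all *Krt18* UMIs of its type. An IL cell of 2821 UMIs also carried 6, with 2 *Krt8*, 2 *Krt18* and 1 *Cdh1* UMIs beside 205 *Pomc* UMIs. The VLMC type, 11 cells, carried all 6 genes of an oligodendrocyte lineage list at 18372 and 18148 CPM, beside its own list at 18137 and 8147 CPM.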
